A study of Mus musculus with 2 samples.

Results

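The subject is 10 genes of apoptotic cell clearance in cultured myeloid-derived suppressor cells (MDSCs): the complement C1q chains C1qa, C1qb and C1qc, the receptor tyrosine kinases Axl and Mertk with their ligand Gas6, and Mrc1, Trem2, Apoe and Msr1. They were taken by symbol from a list, 10 of the 32285 genes in the files, and all 10 had at least 1 unique molecular identifier (UMI, a tag that counts original RNA molecules) in each library. The MDSCs came from marrow of 10-week-old female C57BL/6 mice, grown for 4 days with 50 ng/mL each of GM-CSF and IL-6, and they received either 1.5 µmol/L dabrafenib (DAB), a BRAF kinase inhibitor, or the same volume of its solvent DMSO. Both groups share the cytokines and the mouse strain, and each was sequenced as 1 single-cell RNA library with the 10x Genomics 5′ chemistry. How many mice were pooled for a library is not given in the labels or methods, and with 1 library per condition no test between conditions was possible, and all intervals cover counting error only.

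C1q is the recognition unit of the classical complement pathway, is built from 3 chains encoded side by side, and also coats dying cells so that phagocytes take them up. This uptake, efferocytosis, further uses receptors that see phosphatidylserine on the dying cell, either directly or through bridging proteins such as Gas6, and afterwards the phagocyte must handle the lipid it has swallowed. In myeloid cells, high C1q, Mertk and Mrc1 are usually read as features of tissue macrophages, whereas neutrophils carry little of them. Axl and Mertk belong with Tyro3 to the TAM family of kinases, Mrc1 is the mannose receptor and Msr1 is a class A scavenger receptor. Trem2 is a lipid-sensing receptor that signals through Tyrobp, and Apoe is an apolipoprotein, a protein of the lipoprotein particles that carry cholesterol.

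After filtering, 9023 DMSO cells with 92072699 UMIs and 10460 DAB cells with 138622876 UMIs were analysed, and the median cell held 7511 and 9365.5 UMIs, respectively. The files shared 152 cell barcodes, 1.54% of the smaller file. Cells were clustered without the 10 genes, which gave 25 clusters, lettered A to Y, of which 9 met the marker rule for a name and 23 had at least 50 cells in both libraries. No cluster met the rule for a macrophage-like name. Cluster T, the nearest to it, was led by Pf4, Wfdc17, Ppbp and Ccl7, had 3 of 9 detected macrophage markers raised, and held no UMI of Vcam1, Cd163, Folr2 or Cd5l in either library, so it is called the Pf4-led cluster. It held 172 DMSO cells (1.91%) and 176 DAB cells (1.68%).

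In GRCm38 coordinates (GENCODE vM21, the mm10 build of the files), the C1q genes lie in 1 row on the minus strand of chromosome 4, with C1qb at chr4:136880129-136886187, C1qc at chr4:136889804-136893065 and C1qa at chr4:136895917-136898803, separated by 3616 and 2851 bases. Of the other genes, Axl (chr7:25757273-25788705), Apoe (chr7:19696109-19699188), Gas6 (chr8:13465374-13494490) and Msr1 (chr8:39581685-39642673) are on the minus strand. Mertk (chr2:128698956-128802894), Mrc1 (chr2:14229392-14332057) and Trem2 (chr17:48346401-48354147) are on the plus strand. All 10 are annotated as protein-coding.

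RefSeq promoters (250 bases before to 50 bases after the annotated start, GRCm38.p6) were found for 8 of the 10 genes. C1qb and C1qc are shown because they are neighbours that were both lower in DAB, and Trem2 because it was lower in some clusters and higher in another. Capitals mark matches on either strand to the letters searched, where N is any base. They were TGCTGAC, a half-site of MAF factors, GAGGAAGT, a site of the PU.1 type, TGANTCA, a loose form of an AP-1 site, and TGATGNAA, a composite site of the ATF4 type. The motifs do not contain one another, and were chosen with results of these data known.
C1qb, chr4:136886151-136886450, minus strand: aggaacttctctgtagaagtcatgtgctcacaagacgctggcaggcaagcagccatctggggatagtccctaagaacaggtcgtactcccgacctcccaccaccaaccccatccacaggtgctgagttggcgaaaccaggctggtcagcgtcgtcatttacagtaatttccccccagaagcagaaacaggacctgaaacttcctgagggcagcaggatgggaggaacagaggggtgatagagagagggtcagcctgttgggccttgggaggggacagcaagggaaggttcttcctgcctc
C1qc, chr4:136892865-136893164, minus strand: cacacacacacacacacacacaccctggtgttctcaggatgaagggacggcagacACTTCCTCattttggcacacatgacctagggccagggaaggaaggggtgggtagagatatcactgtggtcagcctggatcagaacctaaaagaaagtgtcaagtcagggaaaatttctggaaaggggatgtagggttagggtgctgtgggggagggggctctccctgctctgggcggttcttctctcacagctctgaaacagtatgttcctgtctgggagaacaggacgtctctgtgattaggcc
Trem2, chr17:48346151-48346450, plus strand: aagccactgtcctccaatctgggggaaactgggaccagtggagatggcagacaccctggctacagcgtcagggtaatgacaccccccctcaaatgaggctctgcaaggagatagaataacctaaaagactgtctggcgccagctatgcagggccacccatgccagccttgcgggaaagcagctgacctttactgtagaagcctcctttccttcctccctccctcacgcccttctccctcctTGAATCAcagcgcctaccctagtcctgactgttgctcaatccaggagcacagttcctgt
The C1qc window held 1 match of the PU.1 type, read on the opposite strand, and the C1qb window held no match. The Trem2 window held 1 match to the loose AP-1 letters, TGAATCA, with A as the free middle base. Of the windows not shown, 1 of the 3 for Apoe held 1 match of the ATF4 type, and the rest held no match. Among 32544 RefSeq promoters of the same length, 3.11% held the PU.1 letters, 7.79% the AP-1 letters, 4.65% the MAF half-site and 3.91% the ATF4 letters. No MAF half-site was present in the windows of the 8 genes.

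Over all cells, 9 of the 10 genes were lower in the DAB library and none was higher. A gene was called lower or higher when its log2 ratio (DAB over DMSO, of UMIs scaled to counts per 1e+06 UMIs, CPM) was at least 0.5 in size, its 95% interval left out 0, and the libraries together held at least 20 UMIs. By this rule, 16.5% of 16328 genes were called lower and 13.8% higher, with a median log2 ratio of all genes of -0.02, against -2.48 for the 10. Gas6 was the exception, at the limit of detection. The 10 genes were chosen with earlier results of these data known, so the share of all genes is no independent measure for them. As a mean over cells and with the same cluster weights in both libraries, Apoe stood above 0 (0.40 and 0.20). Msr1 then fell short of the threshold (-0.26 and -0.33). The plot of levels in both libraries shows the 10 genes side by side.

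**Figure D1:**
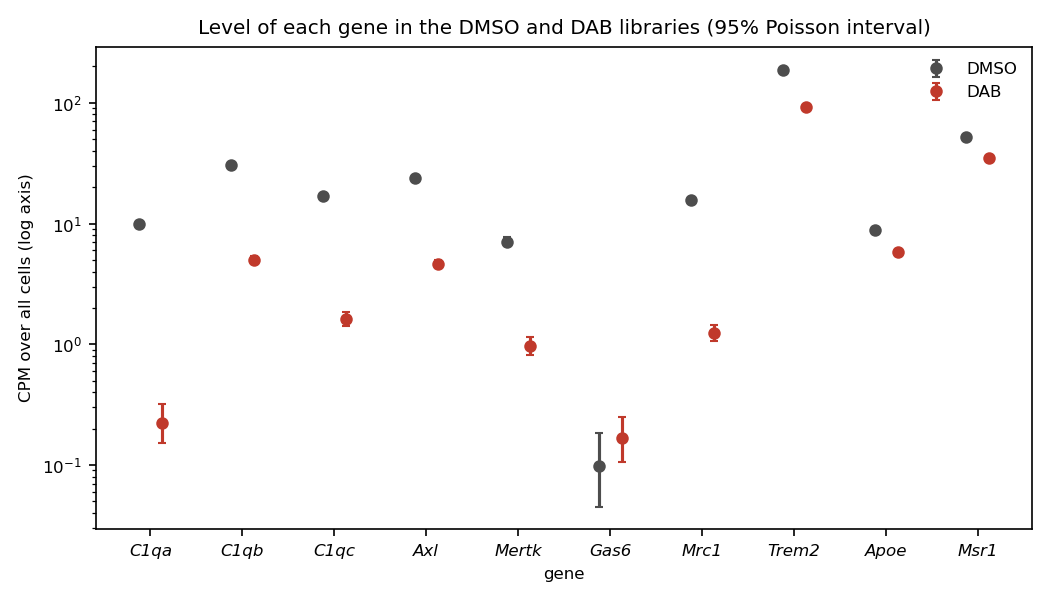
Level of each gene over all cells (CPM, log axis) in the DMSO and DAB libraries, with 95% Poisson intervals; 1 point is 1 library. The DAB point lies below the DMSO point for 9 genes, by the widest margin for C1qa, and the intervals of Gas6 overlap.

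Of the 10 genes, C1qa had the widest gap, and all C1q chains were lower in DAB. C1qa, the A chain, had 906 UMIs in the DMSO library and 31 in the DAB library, or 9.84 and 0.224 CPM, a log2 ratio of -5.46 (95% interval -6.03 to -4.94). C1qb, the B chain, had 2813 and 697 UMIs, or 30.6 and 5.03 CPM, and a log2 ratio of -2.60 (-2.72 to -2.48). C1qc, the C chain, had 1548 and 224 UMIs, or 16.8 and 1.62 CPM, and a log2 ratio of -3.38 (-3.59 to -3.18). The summed C1q level was 8.33 times lower in DAB (log2 ratio -3.06, -3.16 to -2.96). Fewer cells held C1q in DAB, and those that did held less of it: 469 DMSO and 210 DAB cells held a UMI of any C1q gene, and these cells held on average 11.2 and 4.53 C1q UMIs. After every cell was thinned to 1500 UMIs (436 DMSO and 292 DAB cells were shallower and dropped), 2.50% of DMSO and 0.639% of DAB cells held a C1q UMI. The B cell-like cluster, which should lack C1q, held it in 0 of 143 DMSO and 0 of 190 DAB cells, which allows shares of up to 2.10% and 1.58%, with medians of 3958 and 4937.5 UMIs per cell.

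C1q RNA was held by few cells, so the intervals above, which treat UMIs as independent, are narrower than the spread between cells would give. In DMSO, 74.1% of C1q UMIs lay in the 90 highest cells, and the highest cell held 249. In DAB, 87.2% lay in the 104 highest cells, and the highest cell held 70. The 5 highest cells held 15.4% of the DMSO and 22.6% of the DAB C1q UMIs. Over all cells, the mean of each cell's CPM, which weights cells equally, gave a log2 ratio of -3.68 for C1qa.

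Across clusters, C1q was carried in DMSO by the Mmp12-led cluster A (1608 UMIs), the mature monocyte-like cluster I (1504 UMIs) and the Pf4-led cluster T (1442 UMIs). In the Pf4-led cluster, 106 of 172 DMSO cells (61.6%) held a C1q UMI against 28 of 176 DAB cells (15.9%), and the summed level was 776 CPM in DMSO and 40.1 CPM in DAB (log2 ratio -4.28, -4.57 to -4.00). That ratio depends on where the cluster ends: other clustering settings gave values from -2.82 to -4.39, all lower in DAB. Cluster A stood at 83.7 and 7.06 CPM (log2 ratio -3.57), and the mature monocyte-like cluster, which was led by Ccl17 and class II genes, at 157 and 21.7 CPM (-2.86). The cells of the mature monocyte-like cluster also differed in depth, with medians of 19652 and 29373 UMIs, and in the myeloid gene Lyz2 (445 and 62.2 CPM), while Csf1r stood at 173 and 175 CPM. Both genes were chosen after their values were seen, and their part in the result was not tested. The Cpa3-led cluster Q, with 131 and 28.5 CPM (-2.20), and the Retnla-led cluster R, with 48.9 and 20.6 CPM (-1.24), had the narrowest gaps of the clusters with at least 50 C1q UMIs. In cluster R, however, 1 DAB cell held 52 of the 87 DAB UMIs, so its gap depends on that cell. The granulocyte progenitor-like cluster S stood at 72.4 and 3.32 CPM, but its 162 DMSO UMIs came from 3 cells, 1 of which held 123. Of the clusters with enough UMIs to be tested, those called lower in DAB were 4 of 4 for C1qa, 9 of 9 for C1qb and 6 of 7 for C1qc, the exception being cluster R at 9.21 and 7.83 CPM with an interval across 0. Several clusters reached the minimum of 20 UMIs through DMSO alone, which leaves little room for a call other than lower. Their C1q UMIs in DMSO and DAB were 65 and 3 in J, 46 and 1 in P, 89 and 5 in F, and 162 and 13 in S. For C1qa, this limit held in all 4 clusters tested. C1qa UMIs in DMSO and DAB were 261 and 6 in A, 322 and 6 in I, and 226 and 19 in T. In S, C1qa had 62 UMIs in DMSO. Cluster K went the other way, with 0 and 12 C1q UMIs, and was under the minimum. Some of these calls rest on few cells besides those of S. The 5 highest DMSO cells held 92.3% of the C1q UMIs in J, 93.5% in P and 76.4% in F. Over all pairs of a gene and a cluster tested in these 23 clusters, 13.5% were called lower and 13.2% higher, with a range over single clusters of 8.12% to 20% and of 5.86% to 25.7%.

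The order of the clusters also differed by chain. For C1qa in DMSO, the Pf4-led cluster (122 CPM, 95% interval 106 to 139) was above the mature monocyte-like cluster (33.6, 30.1 to 37.5). Cluster S (27.7, 21.2 to 35.5) came next by its point value. All C1q UMIs of S came from 3 cells, so its interval does not cover the spread between cells and its rank is uncertain. For C1qb, the Pf4-led cluster (405 CPM) was followed by Q (99.4, 83.6 to 117), the mature monocyte-like cluster (75.7, 70.3 to 81.5) and A (45.9, 43.0 to 49.1). In DAB, Q (23.5 CPM, 20.2 to 27.2) and the Pf4-led cluster (22.4, 17.2 to 28.7) held about the same C1qb level within their intervals, and in DAB 20 of the 23 clusters held no C1qa UMI.

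**Figure D2:**
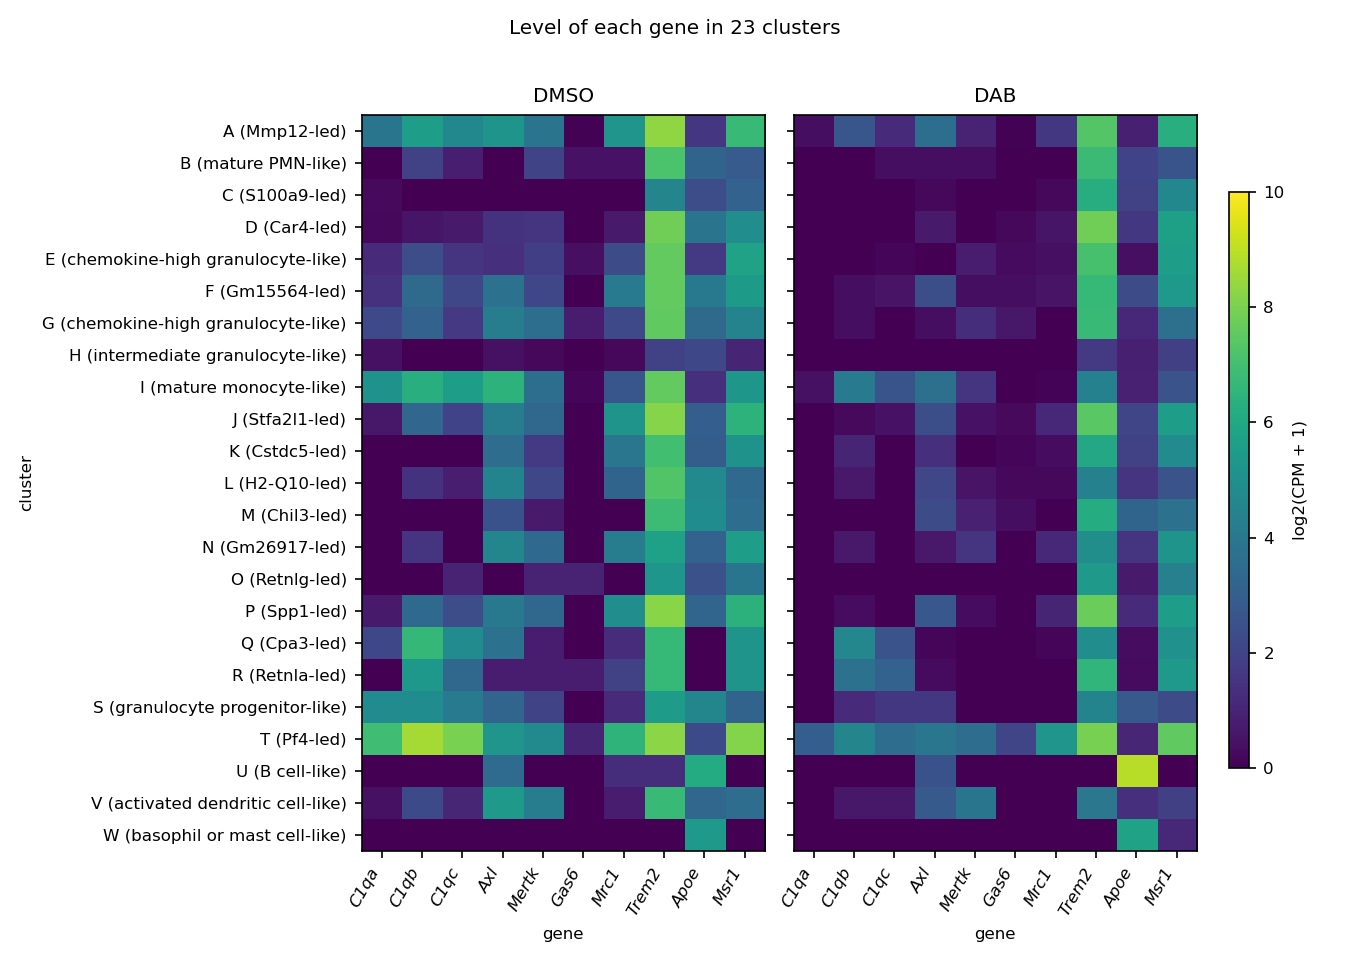
Level of each gene, as log2(CPM + 1), in the 23 clusters that had at least 50 cells in both libraries, DMSO at left and DAB at right; 1 cell of the grid is 1 gene in 1 cluster of 1 library. C1q is brightest in the Pf4-led cluster in DMSO and dimmer in DAB, Trem2 and Msr1 stay bright in many clusters of both libraries, and Apoe is brightest in the B cell-like cluster in DAB.

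By summed UMIs, the 3 chains were not lower by the same factor. As a mean over cells, the log2 ratios lay closer together, at -3.68 for C1qa, -2.65 for C1qb and -3.02 for C1qc. The binomial intervals given here treat UMIs as independent, and the 31 C1qa UMIs in DAB came from 18 cells. C1qa made up 17.2% of C1q UMIs in DMSO (exact binomial interval 16.2 to 18.2) and 3.26% in DAB (2.22 to 4.59), while C1qb made up 53.4% and 73.2%. In the mature monocyte-like cluster the C1qa share was 21.4% in DMSO and 1.75% in DAB, and in cluster A it was 16.2% and 4.08%. In the Pf4-led cluster it was 15.7% in DMSO (13.8 to 17.7) and 17.1% in DAB (10.6 to 25.4), so the shares did not separate there. Cluster Q had almost no C1qa in either library, with 5 of 184 C1q UMIs in DMSO and 0 of 218 in DAB, and cluster R had 0 of 69 and 0 of 87. All 3 chains were detected together in 114 of 469 C1q-positive DMSO cells (24.3%) and in 7 of 210 DAB cells (3.33%), a count that also depends on the number of UMIs per cell.

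**Figure D3:**
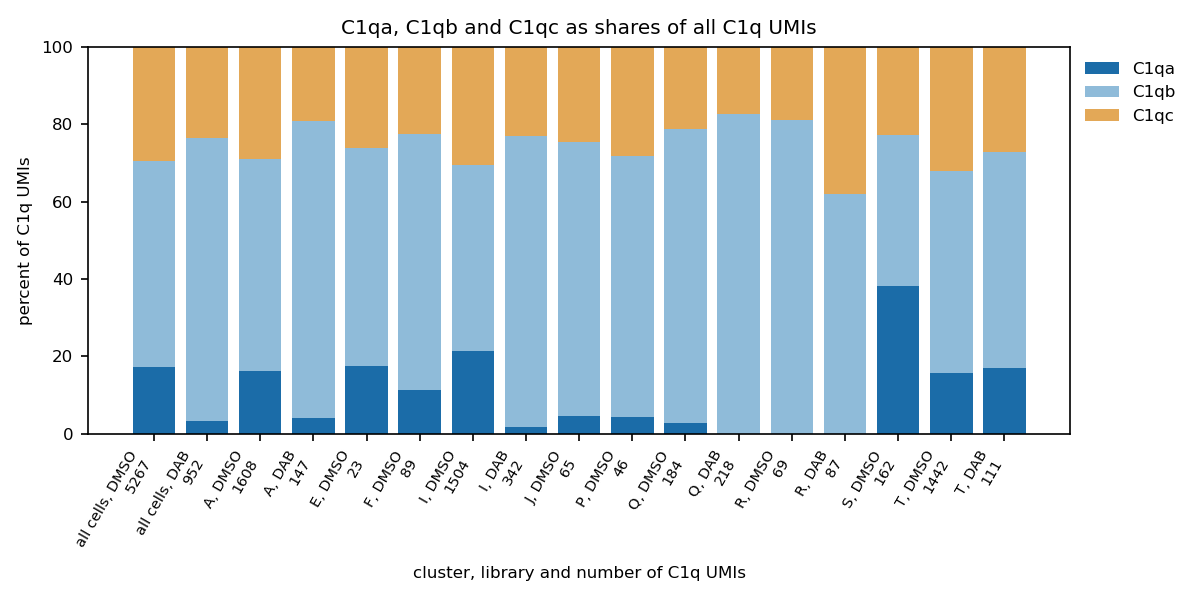
Shares of C1qa, C1qb and C1qc among all C1q UMIs (percent, stacked to 100), for all cells and for each cluster and library with at least 20 C1q UMIs; the number under each bar is its C1q UMIs. The C1qa share is small in DAB for all cells, A and I, similar in both libraries in the Pf4-led cluster T, and near 0 in Q and R of both.

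The TAM receptors were lower in DAB as well. Axl, which binds phosphatidylserine through Gas6, had 2194 UMIs in DMSO and 645 in DAB, or 23.8 and 4.65 CPM (log2 ratio -2.36, -2.49 to -2.23). Mertk, the TAM receptor most tied to macrophage efferocytosis, had 653 and 135 UMIs, or 7.09 and 0.974 CPM (-2.86, -3.14 to -2.60). Few cells held either receptor: 9.48% of DMSO and 3.21% of DAB cells held an Axl UMI, and 477 DMSO and 105 DAB cells a Mertk UMI. After thinning to 1500 UMIs, the Axl shares were 1.90% and 0.413%, and the Mertk shares 0.815% and 0.148%.

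Axl was called lower in 12 of the 13 clusters where it could be tested, and Mertk in 8 of 9. Over all pairs of a gene and a cluster, 13.5% were called lower. With 135 Mertk UMIs in the whole DAB library, several of the Mertk clusters reached the UMI minimum mainly through DMSO. That leaves little room there for a call other than lower. In DMSO the mature monocyte-like cluster had the highest Axl level (86.9 CPM, 81.1 to 93.0), above the activated dendritic cell-like cluster V (41.5, 34.1 to 50.0), which overlapped with the Pf4-led cluster (36.1, 27.9 to 45.8) and A (35.2, 32.6 to 38.0). In DAB these 4 clusters stood at 12.1, 6.03, 14.1 and 11.2 CPM, in the same order, so the mature monocyte-like cluster no longer stood above the Pf4-led cluster. Mertk was not called lower in the activated dendritic cell-like cluster, with 17.2 CPM in DMSO and 13.7 CPM in DAB (log2 ratio -0.33, -1.09 to 0.41), while cluster A had 13.4 and 1.01 CPM (-3.74, -4.45 to -3.09). In the Pf4-led cluster, Mertk was 26.4 and 10.8 CPM (-1.28, -1.99 to -0.60).

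Gas6, the bridging ligand of both receptors, was almost undetected. The DMSO library held 9 Gas6 UMIs, each in a different cell, and the DAB library held 23, of which 1 cell carried 7 (0.0977 and 0.166 CPM, log2 ratio 0.76, -0.40 to 2.06). No difference was detectable at this depth. The other TAM genes were also scarce. Tyro3, the remaining receptor, was at 0.369 and 0.144 CPM (log2 ratio -1.36, -2.23 to -0.52), and Pros1, the second bridging ligand, was at 0.869 and 0.411 CPM (-1.08, -1.60 to -0.57).

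The mannose receptor Mrc1 was lower by a larger factor than Msr1. Mrc1 had 1435 UMIs in DMSO and 172 in DAB, or 15.6 and 1.24 CPM (log2 ratio -3.65, -3.89 to -3.42), and was called lower in all 9 clusters where it could be tested. Outside the Pf4-led cluster, however, no DAB level was above 2.06 CPM. Most of these 9 clusters reached the UMI minimum mainly through DMSO, which leaves little room for a call other than lower. Over all pairs of a gene and a cluster, 13.5% were called lower. The size of the gap differed by cluster. Cluster A had 36.5 and 2.06 CPM (-4.14, -4.62 to -3.70) and the Stfa2l1-led cluster J 35.1 and 1.16 CPM (-4.92), while the Pf4-led cluster had 88.8 and 36.1 CPM (-1.30, -1.67 to -0.93). The Pf4-led cluster held 11.5% of Mrc1 UMIs in DMSO and 58.1% in DAB, with a similar number of cells in both. Without that cluster, the ratio over all cells was -4.73, and as a mean over cells it was -2.32.

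Msr1 had 4784 UMIs in DMSO and 4838 in DAB, or 52.0 and 34.9 CPM (log2 ratio -0.57, -0.63 to -0.52), close to the threshold of 0.5. With each cell's CPM averaged, the log2 ratio was -0.26, and with the same cluster weights in both libraries it was -0.33, so both alternatives fell short of the threshold. Similar shares of cells held an Msr1 UMI, 19.7% in DMSO and 19.8% in DAB, and 4.80% and 4.29% after thinning to 1500. The cluster values spread around that figure. Msr1 was called lower in 8 of 20 clusters, higher in 2 and neither in 10. The mature monocyte-like cluster had 38.4 and 4.95 CPM (-2.96, -3.33 to -2.60), the S100a9-led cluster C 7.78 and 24.5 CPM (1.66, 1.15 to 2.20) and the Car4-led cluster D 29.1 and 50.4 CPM (0.79, 0.52 to 1.07). Of all genes tested, 14.8% were called higher in cluster C and 10.1% in cluster D. The Pf4-led cluster had the highest Msr1 level in both libraries, 279 CPM in DMSO and 189 CPM in DAB.

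Trem2 was broadly expressed. It had 17307 UMIs in DMSO and 12756 in DAB, or 188 and 92.0 CPM (log2 ratio -1.03, -1.06 to -0.997), and 43.4% of DMSO cells against 36.6% of DAB cells held a UMI of it, or 17.5% and 12.6% after thinning to 1500. In DMSO its level was 320 CPM in cluster A (312 to 328), 308 in the Pf4-led cluster (284 to 335), 298 in the Spp1-led cluster P (279 to 317) and 288 in the Stfa2l1-led cluster J (274 to 303). The first 3 of these overlapped and J lay under A, whereas the intermediate granulocyte-like cluster H had 2.79 CPM. Trem2 was called lower in 13 of 21 clusters and higher in 1. The widest gaps were in the mature monocyte-like cluster, 191 and 20.2 CPM (-3.24, -3.42 to -3.07), in the H2-Q10-led cluster L, 156 and 20.2 CPM (-2.95, -3.16 to -2.74), and in the activated dendritic cell-like cluster, 105 and 14.8 CPM (-2.83, -3.46 to -2.26). Cluster A, which held 35.5% of DMSO Trem2 UMIs, had 320 and 160 CPM (-0.997, -1.06 to -0.94).

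Trem2 was called higher in cluster C alone of the 21, and 7 clusters were called neither. Cluster C had 22.4 and 74.7 CPM (log2 ratio 1.74, 1.44 to 2.05), cluster D was at 224 and 226 CPM (0.01, -0.10 to 0.12), and the Pf4-led cluster was at 308 and 246 CPM (-0.33, -0.49 to -0.16). Cluster C was led by S100a9, S100a8 and Ly6g, genes of maturing neutrophils, and 2.21% of its DMSO and 11.6% of its DAB cells held a Trem2 UMI after thinning to 1500. Trem2 and Msr1 were 2 of the 3 members that could be tested in this cluster. Of other myeloid genes in it, Pf4 stood at 3.50 and 30.6 CPM (log2 ratio 3.13) and Lyz2 at 1073 and 3707 CPM (1.79), both called higher. Tyrobp (0.08), C3ar1 (-0.03) and Csf1r (0.40) were called neither, and Slc40a1 was called lower (-1.11). Pf4 and Lyz2 were also both called higher in clusters D, E, F, J, K, M and O. Of these clusters, Trem2 was called lower in F, J, K and M and neither in D, E and O. In cluster D, where Msr1 was higher, Pf4 stood at 15.6 and 99.4 CPM (2.67) and Lyz2 at 1393 and 2755 CPM (0.98). The 12 macrophage markers, Pf4 included, summed to 103 and 108 CPM in cluster C, with 1 lower and 1 higher of 5 tested, and to 133 and 210 CPM in D, with 2 lower and 2 higher of 6 tested, and Vcam1, Cd163 and Cd5l held no UMI in either cluster. Their part in the Trem2 and Msr1 differences was not tested. Whether the cells of a cluster changed or different cells fell into it cannot be told apart here.

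Apoe differed in direction between cell types. Over all cells it had 807 UMIs in DMSO and 803 in DAB, or 8.76 and 5.79 CPM (log2 ratio -0.60, -0.74 to -0.45), but the ratio was above 0 as a mean over cells (0.40) and with the same cluster weights in both libraries (0.20). In the B cell-like cluster U, Apoe had 70.1 and 482 CPM (48 and 508 UMIs, log2 ratio 2.78, 2.35 to 3.24). That cluster held 1.58% of DMSO and 1.82% of DAB cells, and 63.3% of all DAB Apoe UMIs. Apoe was found in 32 of 143 DMSO and in 77 of 190 DAB cells of the cluster. In DAB, the highest cell held 79 UMIs, and 30 cells held 5 or more. All 30 of those cells held the B cell receptor gene Cd79a and 4 held the myeloid gene Lyz2. Over the whole cluster, Lyz2 was also called higher, with 8 and 141 UMIs (11.7 and 134 CPM, log2 ratio 3.52, 2.50 to 4.76), an interval that overlaps that of Apoe. The 12 macrophage markers summed to 55.5 and 70.2 CPM there, of which Adgre1 alone gave 52.5 and 60.7 CPM. Of the 12 markers, 9 held no UMI in DMSO and 6 none in DAB, among them Vcam1, Slc40a1, Cd163 and Folr2 in both. The part of Lyz2 and of these markers in the Apoe difference was not tested. In DMSO, 0 cells of the cluster held 5 or more, and the highest held 4. Across all genes tested in this cluster, 14.9% were called higher.

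Without the B cell-like cluster, Apoe was 3.87 times lower in DAB (8.31 and 2.14 CPM, log2 ratio -1.95, -2.15 to -1.76). Of the 16 clusters where it could be tested, 12 were called lower. The H2-Q10-led cluster L, which held the most Apoe UMIs in DMSO, had 26.6 and 1.95 CPM (-3.77, -4.47 to -3.14), and the Chil3-led cluster M 28.4 and 8.27 CPM (-1.78, -2.45 to -1.15). The basophil or mast cell-like cluster W was at 40.2 and 53.1 CPM (0.40, -0.43 to 1.30). Over the 23 DMSO clusters, which share 1 library, the level of Apoe had a correlation of -0.43 to C1q and of -0.55 to Msr1.

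**Figure D4:**
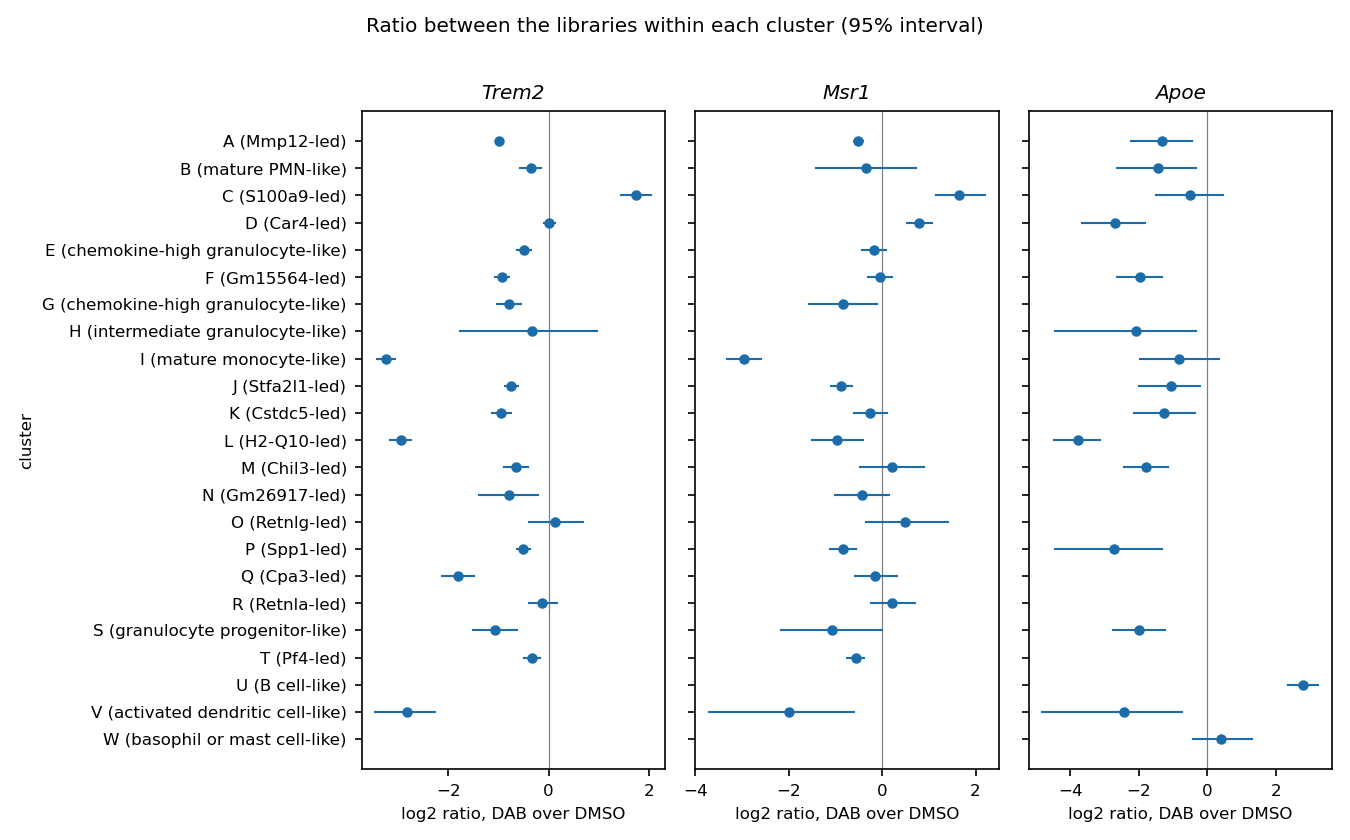
Log2 ratio (DAB over DMSO) of Trem2, Msr1 and Apoe within each cluster, with 95% intervals for counting error; 1 point is 1 cluster, and clusters with under 20 UMIs of the gene are left out. Most points lie left of 0, cluster C lies right of 0 for Trem2 and Msr1, and the B cell-like cluster U lies right of 0 for Apoe.

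Of the 15 clusters in which at least 4 members could be tested, more than 50% of the tested members were called lower in 13, and all were in 5. Each count is given with the share of all genes tested in that cluster that were called lower. All tested members were lower in cluster A (9 of 9, 19.1% of all genes), J (7 of 7, 14.4%), P (7 of 7, 12.7%), L (6 of 6, 19.2%) and G (4 of 4, 10.1%). The mature monocyte-like cluster had 8 of 9 (20%), the Pf4-led cluster 7 of 8 (13%), F 7 of 8 (12.1%), the granulocyte progenitor-like cluster S 6 of 7 (14.8%), the activated dendritic cell-like cluster 4 of 5 (12.5%), K 4 of 5 (14.9%), N 3 of 4 (10.2%) and Q 3 of 4 (16.2%). The 2 clusters at or under 50% were M, with 2 of 4 (10.5%), and R, with 1 of 4 (15.9%). The C1q calls within these counts rest on few cells in S, J, P and F and reached the UMI minimum there through DMSO alone, as given above. The same UMI limit held for C1qa in A, the mature monocyte-like cluster and the Pf4-led cluster. It held for Apoe in A, J, P and the activated dendritic cell-like cluster. Most Mrc1 calls and several Mertk calls also reached the minimum mainly through DMSO. Pf4 itself had 3749 and 1931 CPM in the Pf4-led cluster, and the other 11 macrophage markers summed to 398 CPM in DMSO and 333 in DAB. Adgre1 alone gave 215 and 214 CPM of that sum. Over all cells the 12 macrophage markers summed to 284 and 303 CPM, with 3 called lower and 4 higher of 10 tested. Adgre1 (113 and 147 CPM) and Pf4 (110 and 98.8 CPM) made up most of these sums. The sums therefore say little of the scarcer markers, such as Ms4a7 (log2 ratio 2.20) and Folr2 (-2.18). The part of the macrophage markers in the members' differences was not tested.

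The other genes of these pathways were counted by list. Among classical complement genes, 5 of 10 tested were lower and 1 was higher. The lower ones included C3, the central complement component (377 and 217 CPM, log2 ratio -0.79, -0.82 to -0.77), and the higher one was Cr1l, a complement regulator (23.6 and 37.8 CPM, 0.68, 0.60 to 0.75). Complement and C1q receptors had 4 of 11 lower and 0 higher, and the largest gap was that of Lrp1, an endocytic receptor for C1q and calreticulin (70.6 and 25.9 CPM, -1.45, -1.51 to -1.39). The anaphylatoxin receptor C3ar1 stood at 47.1 and 44.8 CPM (-0.07).

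Among genes of phosphatidylserine recognition, 6 of 13 were lower and 1 was higher. Cd36, a scavenger receptor that takes up dying cells and oxidised lipid, was at 16.7 and 1.34 CPM (log2 ratio -3.64, -3.86 to -3.42), a size close to that of Mrc1, and it also stood lower within the Pf4-led cluster (39.8 and 5.41 CPM). Scavenger receptors other than members had 6 of 9 lower and none higher, and those with the largest gaps at 20 CPM or more in 1 library were Scarb1 (-1.08), a lipoprotein receptor, and Cxcl16 (-1.06), a scavenger receptor and chemokine. Below that level, Scarf1, a scavenger receptor named after its values were seen, was at 3.01 and 1.08 CPM (-1.48). Of 15 genes of the engulfment machinery, 0 were lower and 2 were higher, a share of 13.3% beside the 13.8% of all genes. These were Elmo1 (66.5 and 107.6 CPM, 0.69) and Dock2 (121 and 185 CPM, 0.60), which activate Rac during uptake. Among signals that block uptake, 1 of 7 was lower, the inhibitory receptor Pirb (-0.55), and none was higher. That share of 14.3% lower is near the 16.5% of all genes.

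In the list of TREM2 signalling and lipid-handling genes, 3 of 19 were lower, a share of 15.8% beside the 16.5% of all genes, and 1 was higher. Tyrobp, the adaptor that Trem2 signals through, was at 1957 and 2294 CPM (log2 ratio 0.23), while Fabp5, a fatty acid carrier (360 and 82.8 CPM, -2.12, -2.15 to -2.09), and Lpl, a lipase (481 and 159 CPM, -1.60, -1.62 to -1.57), were lower. Cholesterol efflux and lipoprotein genes had 7 of 17 lower and 2 higher, and both efflux transporters were among the lower, Abca1 (8.23 and 5.54 CPM, -0.57) and Abcg1 (59.0 and 36.5 CPM, -0.69). Alternative activation genes had 6 of 10 lower, led by Ccl17 (-2.88), a chemokine, and Clec10a (-1.48), a lectin, and 1 higher, Retnla (342 and 1148 CPM, 1.75).

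Of 12 macrophage transcription factors, 7 were lower and 1 was higher. Among the lower ones, Batf3 was at 38.2 and 12.3 CPM (log2 ratio -1.64, -1.72 to -1.55). The higher one, Maf, was at 4.67 and 7.93 CPM over all cells (log2 ratio 0.76, 0.60 to 0.93) and at 27.4 and 24.2 CPM in the Pf4-led cluster. The medians of the lists ran from 0.16 for signals that block uptake to -1.03 for scavenger receptors, against -0.02 for all genes.

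The genes most like each member over the 23 DMSO clusters were found by Pearson correlation of log2(CPM + 10), a description in which clusters share 1 library. The summed C1q genes were most like Galnt9 (r = 0.87), Cyp1b1, Gm33055, Acp5 and Cav2. Axl was most like Slc30a4 (0.93), Cltb and Malt1, and Mertk was most like Apbb2 (0.94), Ift43 and Pdgfa. Mrc1 was most like St18 (0.89), Sash1 and Dse, Msr1 like Gm47507 (0.94), Slc7a2 and Fn1, and Apoe like Jakmip1 (0.80), Hspa2 and Tmx2. Trem2 was most like Clec4n, a C-type lectin, followed by Mrps18a and Romo1, with 0.95 for Clec4n in DMSO. The pairs were picked by their DMSO values, so lower values in DAB are in part a result of that choice. Whether the likeness differs between the libraries cannot be told from them. Which genes came first depended on the measure. Of the 23 pairs of a member and a gene, 19 had a value in DAB, from 0.41 (Mertk and Pdgfa) to 0.93 (Apoe and Jakmip1) with a median of 0.65, against 0.76 or more in DMSO, and 16 pairs stayed among the first with 1 CPM added and 6 by Spearman correlation. Among the members, Axl and Mertk (0.80), Mrc1 and Msr1 (0.86) and Msr1 and Trem2 (0.78) went together in DMSO.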

How the data were processed

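Single-cell RNA was measured in 1 DMSO and 1 DAB library. The deposited values are raw UMI counts per gene and barcode, which the authors made with Cell Ranger 7.0.0 on mm10, and which held 9855 DMSO barcodes (106792967 UMIs) and 11631 DAB barcodes (165506902 UMIs). A mitochondrial share above 10% removed 55 and 89 barcodes, none lay beyond 4 median absolute deviations, and 777 and 1082 barcodes were removed as doublets, scored against simulated ones. Pearson residuals of 3000 genes without the 10 members, with cell cycle and mitochondrial scores regressed out, were reduced to 40 principal components, aligned by mutual nearest neighbours (k = 20) and clustered with Leiden at resolution 0.9 (leidenalg 0.10.2, scipy 1.17.1, Python 3.11.15). A cluster was named after the class whose markers had the greatest mean log2 fold in it if at least 3, and most of those detected, were raised by a log2 fold of at least 1 and if they led the other classes among its 10 leading genes; 64.8% of DMSO and 60.3% of DAB cells stayed unnamed.

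Counts were summed per library and cluster. CPM carries exact Poisson, shares exact binomial and ratios exact conditional intervals at 95%, with seed 1 for thinning. In each list, the genes named were at most the 2 with the largest ratios in each direction among genes called and at 20 CPM or more in 1 library, plus genes fixed by name (Tyro3, Pros1, Tyrobp, Abca1, Abcg1, C3ar1, Cd36 and Maf, and 1 that is not reported here), and, by likeness, 5 genes for C1q and 3 for each other member. The members and lists were chosen with earlier results of these data known. The ratio and its interval were tested on simulated data with independent UMIs, as the interval assumes. That test does not cover the spread between cells. The alternatives were other scalings, filters, clusterings, thinnings, thresholds and measures of likeness. The authors' own cluster labels were not used here.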

Additional observations from a re-analysis of the deposited data

Results flagged for a closer look

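In the S100a9-led cluster C, Trem2 was higher in DAB (log2 ratio 1.74) while 13 other clusters were called lower. Msr1 was higher in cluster C (1.66) and in the Car4-led cluster D (0.79) while 8 clusters were called lower. Apoe was higher in the B cell-like cluster U (2.78) while 12 clusters were called lower. Several of these lower Apoe calls reached the UMI minimum through DMSO alone, as given above. In each case the direction in 1 or 2 clusters is opposite to that in the clusters called lower. Higher calls made up 1 of 21 tested clusters for Trem2, 2 of 20 for Msr1 and 1 of 16 for Apoe. Over all pairs of a gene and a cluster, 13.2% were called higher, so higher calls were not more frequent here than over all genes. The remaining tested clusters, 7 for Trem2, 10 for Msr1 and 3 for Apoe, were called neither. With 1 library per condition the difference between clusters was not tested.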

How the results depend on the processing

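With 1 library per condition, leaving out a replicate was not possible, and no paired analysis was possible because each condition has 1 library, so the comparison comes from no test. Scaling by the median of ratios, no cell filter and no doublet removal left every member within its interval. Apoe turned to higher in DAB as a mean over cells (0.40) and with the same cluster weights in both libraries (0.20), and stood at -1.95 without the B cell-like cluster, a setting chosen after seeing the data. As a mean over cells, C1qa was -3.68, C1qc -3.02, Mertk -2.46, Mrc1 -2.32, Trem2 -0.57 and Msr1 -0.26. With the same cluster weights in both libraries, C1qb was -3.02, Axl -2.15, Mrc1 -3.35, Trem2 -0.67 and Msr1 -0.33. Without the Pf4-led cluster, C1qa was -6.42, C1qb -2.29, C1qc -3.07 and Mrc1 -4.73. The cause of these shifts was not tested.

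The Pf4-led cluster was smaller in some clusterings. Its share of DMSO and DAB cells was 1.05% and 0.727% at resolution 0.5, 1.20% and 0.765% with the members kept, 1.13% and 0.736% without cell cycle regression, and, in settings chosen after seeing the data, 1.22% and 0.758% with no cell filter and 1.14% and 0.684% with no doublet removal. The C1q log2 ratio in it was then -3.00, -3.05, -2.87, -3.17 and -2.82 in the same order, and -3.90 in a clustering, also chosen after seeing the data, without 83 genes that differ between the libraries. The log2 ratio of the share of cells with a C1q UMI was -1.37 without thinning and -1.97 after it. With a log2 ratio of at least 1 as threshold, 7 of the 10 members were called lower, beside 7.17% of all genes. Of the 5 genes most like C1q, 3 remained with 1 CPM added and 2 by Spearman correlation. Gas6, at 9 and 23 UMIs, was limited by depth.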
